A study of Saccharomyces cerevisiae with 12 samples.

Results

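The data compared here are the transcript levels of *bmh2∆* and *bmh1∆* cells of the yeast *Saccharomyces cerevisiae* after 60 min without potassium (0 mM KCl). The comparison used 6 of the 12 libraries of the study, 3 of *bmh2∆* (named C0, D0 and E0) and 3 of *bmh1∆* (named B0, GTCACG and TGCACT). They were all the libraries whose names give one of these strains and 0 mM KCl. Both strains were derived from BY4741 (MATa, *his3Δ1 leu2Δ0 met15Δ0 ura3Δ0*). In one strain *BMH2* and in the other *BMH1* had been deleted, leaving a loxP site, and each deletion was represented by a single strain. Cells grown in medium with 50 mM KCl were washed and kept in the same medium without KCl. The other 6 libraries, 3 of each strain, came from cells that were kept at 50 mM KCl for 60 min. The labels do not say whether the 3 libraries of a group came from separate cultures, so the p-values measure only the spread between these libraries. All values are in RPM, reads scaled to a total of 1000000 per library, and they came from tags of 17 bases next to the last CATG of each polyadenylated transcript. Levels of different genes were not compared.

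*BMH1* and *BMH2* encode the 14-3-3 proteins of yeast, which bind phosphorylated partners and change their activity, stability or location. The proteins share many partners, cells lacking one of them are viable, and the *BMH1* product is the more abundant. Known partners act in trehalose breakdown, in nutrient signalling, in mating and filamentation pathways and in control of the cell cycle. Starvation for potassium is known to slow growth of yeast and to switch on genes of phosphate uptake.

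The *bmh1∆* libraries B0 and GTCACG stood apart and are described before the results. The values of each library were whole multiples, within 0.01, of a step that was taken as the unit of depth. On this scale the *bmh2∆* libraries held 12910762 to 13766555 steps, and the *bmh1∆* libraries held 107579363 (B0), 73863623 (GTCACG) and 13437133 (TGCACT). In steps, B0 was at or above the sum of the 7 other libraries named by a letter (B50, C50, D50, E50, C0, D0 and E0) for 6053 of 6053 genes. These 7 libraries sum to 74.9% of the steps of B0, and the 6 libraries of *bmh2∆* alone to 69.1%. Likewise GTCACG was at or above the sum of the 3 other libraries of lane 1 (TGCACT, and at 50 mM KCl the libraries GGATAT plus CTATAG) for 6052 of 6053 genes, and the sum held 60.9% of its steps. The single exception was *RPP1B*, a gene named after its values were seen, with 1.02 RPM in GTCACG and 9588 RPM in TGCACT. Other libraries, scaled to the depth of B0 or GTCACG, were below the same sums for 19.6% to 45.9% and for 9.14% to 46.7% of genes. Among the tested genes the ratio of B0 to the sum had a median of 1.32, and it lay between 1.16 and 1.49 once the lowest and the highest 1% of genes were left out. *BMH2* had the highest ratio, 6.72. Where the reads of B0 and GTCACG came from was not tested. Results are therefore also given with what is left of B0 and GTCACG after the sums are taken away, called the remainders here, and against each *bmh1∆* library alone. The sum taken from B0 includes the *bmh2∆* libraries. The subtraction itself thus tends to lower genes high in *bmh2∆* and to raise genes low in it. Results with the remainders are therefore no independent check, and they have a meaning only if the reads are shared. In the plot of steps the genes of B0 form a narrow band above the line of equality, and those of GTCACG a wider one.

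**Figure D1:**
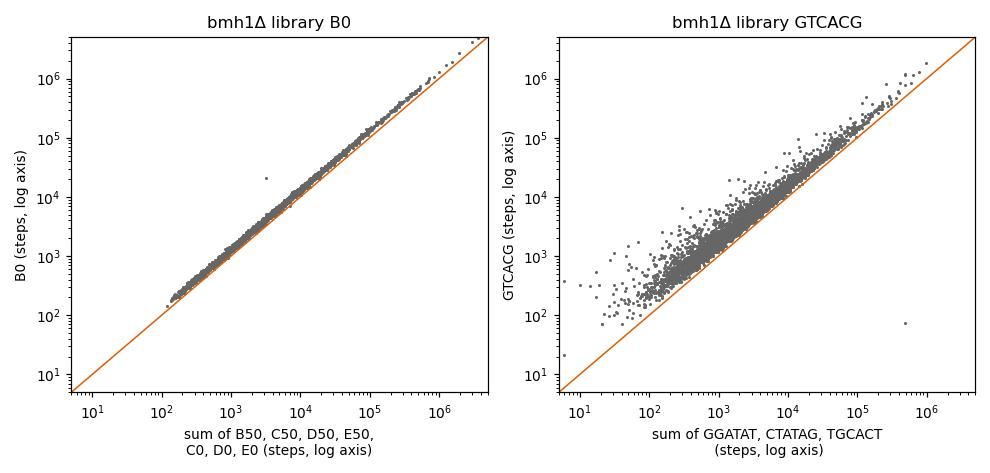
Steps (value divided by the step of its library, log axes) of each of 5135 tested genes in the *bmh1∆* library B0 (left, against the sum of the 7 other lettered libraries) and GTCACG (right, against the sum of the 3 other lane 1 libraries). The line marks equality. In the left panel the point far above the band is *BMH2*, and in the right panel the point far below the line is *RPP1B*.

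The libraries were also run in different lanes. GTCACG and TGCACT were in lane 1, B0, D0 and E0 in lane 6 and C0 in lane 5, so no *bmh2∆* library shared lane 1. At 50 mM KCl the 3 *bmh1∆* libraries were B50, in lane 7, and GGATAT and CTATAG, in lane 1. Within that strain and condition, B50 differed from the mean of the lane 1 libraries by a median of 1.16 on the log2(RPM + 1) scale over the tested genes, whichever the sign. Among the libraries compared, B0 was the only one of *bmh1∆* that shared a lane with *bmh2∆*. It lies at or above a sum that includes all *bmh2∆* libraries at every gene, and it may share reads with them. The lane and the strain therefore cannot be told apart here.

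*BMH2* (YDR099W, chrIV:653607-654428, plus strand, build R64) was at 0.291, 0 and 0 RPM in *bmh2∆*, against 197, 372 and 454 RPM in *bmh1∆*. Throughout, values are in the order C0, D0 and E0 for *bmh2∆* and B0, GTCACG and TGCACT for *bmh1∆*, and those at 50 mM KCl in the order C50, D50 and E50 for *bmh2∆* and B50, GGATAT and CTATAG for *bmh1∆*. The gene was close to 0 in all the libraries labelled *bmh2∆* and well above 0 in all those labelled *bmh1∆*. The log2(RPM + 1) difference was −8.21 ± 0.40 (SE, n = 3 each), with an adjusted p of 1.8e-04 in limma (Benjamini-Hochberg over 5135 genes). In the remainder of B0, *BMH2* was at 668 RPM.

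*BMH1* (YER177W, chrV:545611-546414, plus strand) was not near 0 in the strain that lacks it. It was at 4679, 5391 and 5293 RPM in *bmh2∆*, against 4169.8, 1972 and 1757 RPM in *bmh1∆*. The *bmh2∆* libraries were above all those of *bmh1∆*, and B0 was the nearest of these. The difference was 1.07 ± 0.39, with an adjusted p of 0.27 in limma. *BMH1* at 50 mM KCl was at 5175, 4276 and 4048 RPM in *bmh2∆*, against 536, 1466 and 2189 RPM in *bmh1∆*, again with all *bmh2∆* libraries higher. The *BMH1* coding region ends upstream of further CATG sites in the reference, so a transcript from the deleted locus could still give a *BMH1* tag, and the *BMH1* level does not check the deletion. The candidate tags in the R64 reference are shown because they decide what the *BMH2* and *BMH1* values can show. CATG is in capitals, and positions are those of the R64 reference of RefSeq, which is not known to be the build the authors used. For *BMH2* no CATG was found within 300 bases downstream of the stop codon.
BMH2, last CATG of the coding region, chrIV:654272-654292, plus strand: CATGcaattattaagggacaa
BMH1, last CATG of the coding region, chrV:546318-546338, plus strand: CATGtccgagtccggtcaagc
BMH1, downstream of the stop codon, chrV:546537-546557, plus strand: CATGtgcatgtacacacgtaa
BMH1, downstream of the stop codon, chrV:546543-546563, plus strand: CATGtacacacgtaatcgcgc
BMH1, downstream of the stop codon, chrV:546569-546589, plus strand: CATGtctatatgtgttacttg
BMH1, downstream of the stop codon, chrV:546675-546695, plus strand: CATGactcccgacaataatcc

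**Figure D2:**
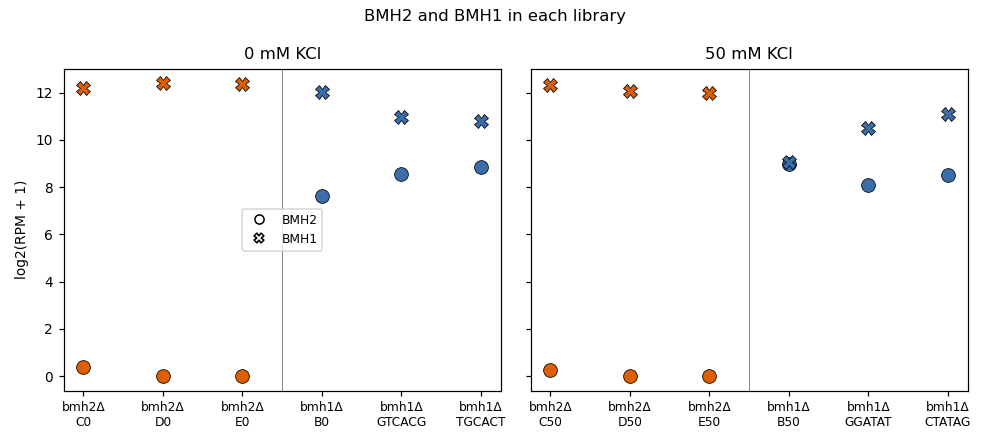
*BMH2* (circles) and *BMH1* (crosses) in each library as log2(RPM + 1), at 0 mM KCl (left) and 50 mM KCl (right), with *bmh2∆* libraries left of *bmh1∆* libraries in each panel. *BMH2* is at most 0.291 RPM in each *bmh2∆* library and at least 197 RPM in each *bmh1∆* library.

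The other labels were met by most of the markers checked. *URA3*, deleted in BY4741, was at most 0.108 RPM in the 6 libraries. *HIS3*, whose *his3Δ1* allele is an internal deletion, was at 25.2, 24.2 and 20.1 RPM in *bmh2∆*, against 20.2, 13.9 and 3.27 RPM in *bmh1∆*, and which part of the gene the tags came from is not known. Markers of MATa cells were present, with *STE2*, the α-factor receptor, at 1399, 1772 and 1164 RPM in *bmh2∆* and 996, 951 and 1518 RPM in *bmh1∆*. The α-factor genes *MF(ALPHA)1* and *MF(ALPHA)2* and the a-factor receptor gene *STE3* were at most 4.26 RPM. *SAG1*, the α-agglutinin gene, was above these levels, at 52.4, 35.2 and 63.7 RPM in *bmh2∆*, against 26.1, 26.9 and 28.2 RPM in *bmh1∆*. *MFA1*, one of the a-factor genes, was at 11162, 13718 and 13600.3 RPM in *bmh2∆*, against 8066, 5264 and 4370.4 RPM in *bmh1∆*. The other a-factor gene, *MFA2*, was at 39.2, 55.9 and 49.3 RPM in *bmh2∆*, against 33.2, 122 and 119 RPM in *bmh1∆*. It was thus above B0 but below both lane 1 libraries. Of 11 tested a-cell genes, 1 (9.09%), *MFA1*, was higher without overlap and 0 were lower, beside 6.76% and 11.5% of all genes.

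Across the transcriptome, hardly any difference between the strains passed a test against the spread between libraries. Of 6053 genes, 5135 had at least 3 RPM in at least 3 of the 6 libraries and were tested. With limma on log2(RPM + 1), 0 genes were higher and 1 gene, *BMH2*, was lower in *bmh2∆* at an adjusted p under 0.05 (0% and 0.0195% of the genes tested). At an unadjusted p under 0.05 there were 303 genes higher and 638 lower. The next smallest adjusted p was 0.27, and the other genes named below had adjusted p values of 0.27 to 0.29. Data were also simulated with the spread of these libraries, with independent noise and the same SD for both strains. In them limma called 1% of 100 genes changed 2-fold and 53% of 100 changed 4-fold, all above a minimum mean level. The median SD of the real libraries was 0.50 in *bmh1∆* and 0.32 in *bmh2∆*, so these shares are only a rough guide. A gene that did not pass may therefore still differ. With 3 libraries against 3, an exact permutation test of a single gene cannot give a p below 0.1. For this reason the genes below are described by their values, and apart from *BMH2* none of them was shown to differ. The libraries came from whole cultures, in which fewer cells of a kind, such as cells in S phase, and less RNA per cell cannot be told apart.

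A gene is named below only where all 3 *bmh1∆* libraries lay on the same side of all 3 *bmh2∆* libraries, called no overlap here. There was no overlap for 347 genes with *bmh2∆* higher (6.76% of those tested) and for 588 with *bmh2∆* lower (11.5%). This split depended on the scaling. After median-of-ratios scaling, 522 genes were higher and 411 lower. The median difference of all genes was −0.14 as deposited and 0.03 after scaling, so list medians are to be read beside these values. With the remainders in place of B0 and GTCACG, 401 genes (7.81%) were higher and 620 (12.1%) lower without overlap. Of the genes above, 276 and 503 were also in these lists.

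The *bmh1∆* libraries gave differences of unequal size. The median absolute difference of a gene, *bmh2∆* mean minus the library, was 0.23 against B0, 0.82 against TGCACT and 0.72 against GTCACG. Between pairs of *bmh2∆* libraries it was 0.32 to 0.52. Of the 935 genes without overlap, B0 was the *bmh1∆* library nearest to *bmh2∆* for 738 (78.9%), TGCACT for 175 and GTCACG for 22. Since the *bmh2∆* libraries sum to 69.1% of the steps of B0 and B0 lies at or above this sum at every gene, nearness to B0 cannot be told apart from reads that B0 may share with them, and whether it does was not tested. A difference of 2-fold or more was seen for 171 higher and 309 lower of these genes against TGCACT, and for 6 higher and 76 lower against B0. In the plot of both differences the genes without overlap spread widely along the TGCACT axis and little along the B0 axis.

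**Figure D3:**
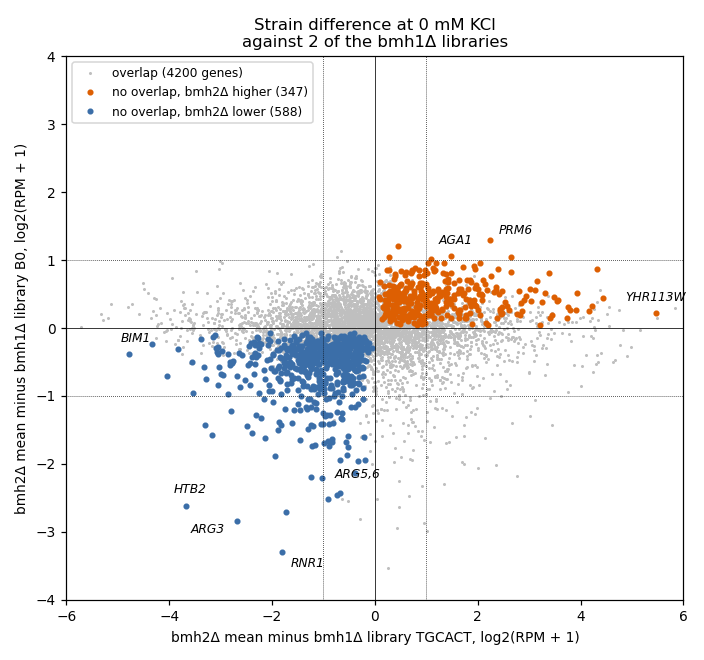
Difference of the *bmh2∆* mean from the *bmh1∆* library TGCACT (horizontal) and from B0 (vertical), both in log2(RPM + 1), for the tested genes. Coloured points are the 347 genes higher and the 588 lower in *bmh2∆* without overlap, grey points the others, dotted lines mark 2-fold, and 3 genes, *BMH2* among them, lie outside the axes.

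The same direction was often seen between lanes within *bmh1∆*. Of the 347 genes higher in *bmh2∆*, 260 (74.9%) were also higher in B50 than in both lane 1 *bmh1∆* libraries at 50 mM KCl, a pattern that 38.0% of all tested genes had. Of the 588 genes lower in *bmh2∆*, 532 (90.5%) were lower in B50 than in both, against 53.0% of all tested genes. These counts are not independent of the choice of the genes. The genes were chosen with B0 and GTCACG, which lie at or above sums that include the 50 mM KCl libraries compared here. B50, C50, D50 and E50 sum to 37.4% of the steps of B0, and GGATAT plus CTATAG to 42.7% of those of GTCACG. The part of the lane was not tested.

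For a smaller group of 46 genes without overlap the *bmh2∆* mean of log2(RPM + 1) was 2-fold or more from each *bmh1∆* library, B0 included. *bmh2∆* was higher for 4 of them and lower for 42. All 46 were also without overlap after median-of-ratios scaling and after quantile normalization, but 35 and 38 of them kept the 2-fold difference from each library. With the remainders, which depend on the *bmh2∆* values, 44 were without overlap. B0 and GTCACG lie at or above sums that include 50 mM KCl libraries at nearly every gene. For genes whose level changes with potassium, distance from B0 and GTCACG cannot be told apart from reads they may share with those libraries. Whether they share such reads was not tested. In 7 of the 42 lower genes, *BMH2*, *RNR1*, *HO* and *AIM34* among them, all *bmh2∆* libraries were under 3 RPM, so that these genes were tested only through *bmh1∆* and had to be lower. The 4 genes with higher levels in *bmh2∆* were *AGA1*, which was named after its values were seen, *PRM6*, *FIG1* and *NQM1*. The lower ones included the histone genes *HTB2* and *HTA1*, the late G1 gene *RNR1*, the arginine genes *ARG3*, *ARG8* and *ARG5,6* and the purine genes *ADE12* and *ADE8*. In cells kept at 50 mM KCl, 1 of the 4 higher genes and 6 of the 42 lower genes had no overlap in the same direction, beside 10.9% higher and 9.15% lower of all tested genes. The plot of single libraries shows 18 genes named in this text.

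**Figure D4:**
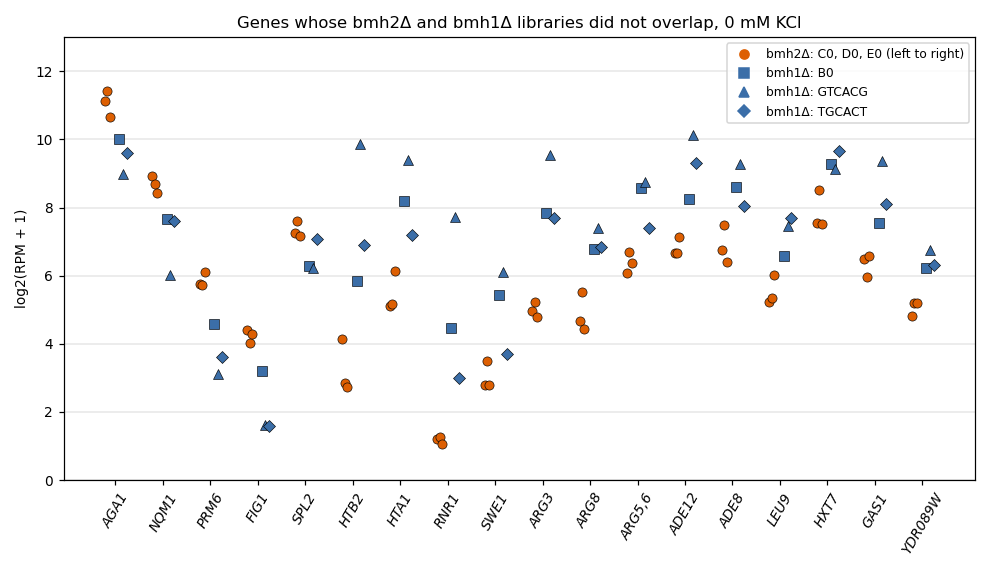
Level of 18 genes in each library at 0 mM KCl as log2(RPM + 1). For each gene the orange circles on the left are the *bmh2∆* libraries and the blue symbols on the right the *bmh1∆* libraries. In each gene all circles lie on one side of all blue symbols, and GTCACG (triangle) is often the farthest from *bmh2∆*.

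Genes of the pheromone response were higher in *bmh2∆* more often than lower. In MATa cells α-factor acts through a receptor, a G protein and a MAP kinase cascade on the transcription factor Ste12, which switches on mating genes. Of 34 genes of this list, 12 had no overlap with *bmh2∆* higher and 0 with *bmh2∆* lower, beside 6.76% and 11.5% of all tested genes. The median difference of the list was 0.29, beside −0.14 for all genes, and it was 0.57 against B0, 0.33 against GTCACG and 0.08 against TGCACT. With the remainders, which depend on the *bmh2∆* values, 10 of the 34 genes had no overlap, all higher.

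*PRM6* (YML047C), a pheromone-regulated membrane protein gene related to the potassium transport gene *KCH1*, was at 52.7, 51.9 and 67.9 RPM in *bmh2∆*, against 22.8, 7.62 and 11.3 RPM in *bmh1∆*. The lowest *bmh2∆* library was above the highest *bmh1∆* library, B0, and the groups lay well apart. Its difference was 2.09 ± 0.42 (SE, n = 3 each), and 1.29 against B0 and 2.24 against TGCACT alone. In the remainder of B0 it was at 4.44 RPM. At 50 mM KCl it was under 1 RPM in all 6 libraries of both strains.

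*FIG1* (YBR040W), a membrane protein gene needed for calcium influx during mating, was at 20.1, 15.3 and 18.6 RPM in *bmh2∆*, against 8.12, 2.07 and 2.01 RPM in *bmh1∆*. All *bmh2∆* libraries were above 15 RPM and the *bmh1∆* libraries below 9 RPM, and the difference was 2.11 ± 0.48. *FIG2* (YCR089W), a cell wall adhesin gene of mating cells, was at 174, 138 and 251 RPM in *bmh2∆*, against 99.7, 26.5 and 8.19 RPM in *bmh1∆*. Its difference was 0.86 against B0 and 4.32 against TGCACT, so it was larger against the lane 1 library. *PRM10*, a further pheromone-regulated membrane protein gene, was at 49.3, 30.3 and 107 RPM in *bmh2∆*, against 30.1, 10.6 and 7.89 RPM in *bmh1∆*, with D0 just above B0.

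The other 8 genes of the list without overlap, named after their values were seen, were *STE12*, *STE18*, *FUS1*, *FUS2*, *FUS3*, *AGA1*, *PRM1* and *PRM3*. *STE18* and *FUS3* encode the G protein gamma subunit and the MAP kinase of the pathway, and *FUS1*, *FUS2*, *PRM1* and *PRM3* act in cell or nuclear fusion. *AGA1* (YNR044W), which encodes the anchor subunit of a-agglutinin, was at 2229, 2756 and 1614 RPM in *bmh2∆*, against 1031, 501 and 770.3 RPM in *bmh1∆*. Its difference was 1.55 ± 0.38 overall and 1.06 against B0. *AGA1* at 50 mM KCl was at 156, 204 and 170.5 RPM in *bmh2∆*, against 78.6, 147 and 99.4 RPM in *bmh1∆*, also without overlap. The list as a whole had 3 genes higher and 5 lower without overlap at 50 mM KCl, with a median of −0.05.

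The stretches before the start codons of *PRM6* and *AGA1* are shown because a pheromone response element, TGAAACA, was searched for in them on both strands. It is the core sequence that Ste12 binds, and matches are in capitals. Of 6007 windows of 300 bases before the start codons of R64 genes, 7.19% held a match. Of the 12 genes of the list without overlap 8 held one, and of all 34 tested genes of the list 16 (47.1%). *FIG1* held none in its window.
PRM6, chrXIII:181076-181375, minus strand: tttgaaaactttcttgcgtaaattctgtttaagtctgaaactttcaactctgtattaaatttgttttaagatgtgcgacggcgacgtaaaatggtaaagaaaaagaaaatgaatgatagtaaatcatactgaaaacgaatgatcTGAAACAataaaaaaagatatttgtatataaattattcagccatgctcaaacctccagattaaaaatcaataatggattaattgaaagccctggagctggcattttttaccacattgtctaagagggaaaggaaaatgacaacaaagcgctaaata
AGA1, chrXIV:703399-703698, plus strand: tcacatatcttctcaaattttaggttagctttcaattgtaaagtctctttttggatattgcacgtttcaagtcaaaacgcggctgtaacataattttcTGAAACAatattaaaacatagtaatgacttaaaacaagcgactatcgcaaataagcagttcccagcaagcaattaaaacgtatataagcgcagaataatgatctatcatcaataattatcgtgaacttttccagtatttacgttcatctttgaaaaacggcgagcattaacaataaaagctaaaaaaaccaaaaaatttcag

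Histone genes were lower in *bmh2∆* more often than higher, though none passed the test. They are transcribed in S phase to package new DNA, and their transcripts are scarce in cells outside it. Of 7 tested genes of the list, 4 had no overlap with *bmh2∆* lower and 0 with *bmh2∆* higher, beside 11.5% and 6.76% of all genes. The median difference was −2.00 against B0, −2.06 against GTCACG and −0.92 against TGCACT, and with the remainders 3 of 7 had no overlap, all lower. Coding regions of the yeast histone gene pairs are nearly alike, and the way tags shared by a pair were assigned is not given in the sources used here.

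*HTB2* (YBL002W), one of the histone H2B genes, was at 16.6, 6.17 and 5.58 RPM in *bmh2∆*, against 56.6, 933 and 119 RPM in *bmh1∆*. All *bmh2∆* libraries were well below the lowest *bmh1∆* library, B0, and GTCACG was far above the others. The difference was −4.31 ± 0.96, with −2.61 against B0 and −3.67 against TGCACT. *HTA1* (YDR225W), for histone H2A, was at 33.4, 34.8 and 69.5 RPM in *bmh2∆*, against 289, 673 and 146 RPM in *bmh1∆*, with a difference of −2.79 ± 0.57. *HHF2* (YNL030W), for histone H4, was at 54.6, 87.9 and 74.4 RPM in *bmh2∆*, against 411, 871 and 135 RPM in *bmh1∆*. In these genes TGCACT or B0 was nearest to *bmh2∆*, and no *bmh2∆* library reached them. *HHT2*, for histone H3, was at 98.4, 108 and 70.2 RPM in *bmh2∆*, against 112, 239.8 and 188 RPM in *bmh1∆*, where B0 and D0 were close, and it overlapped with the remainders.

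In potassium-replete cells, at 50 mM KCl, 2 of the 7 histone genes were higher and 2 lower in *bmh2∆* without overlap, with a median of −0.27. The shares of all tested genes there were 10.9% higher and 9.15% lower. *HTB2* was lower there too, at 95.4, 117 and 87.5 RPM in *bmh2∆*, against 118, 1725 and 1960 RPM in *bmh1∆*, with D50 just below B50. *HTA1* was at 499, 419.7 and 615 RPM in *bmh2∆*, against 188, 1064 and 1127 RPM in *bmh1∆*, and *HHF2* at 605, 797 and 1217 RPM in *bmh2∆*, against 197, 608 and 1024 RPM in *bmh1∆*, both with overlap. The test of the difference between the strain differences at 0 and 50 mM KCl did not pass for these or for any other gene, as described below.

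Late G1 and S phase genes, which cells switch on when they commit to division, depended on the *bmh1∆* library. Of 33 tested genes, 9 (27.3%) had no overlap with *bmh2∆* lower and 0 with *bmh2∆* higher, beside 11.5% and 6.76% of all genes. The median difference was −1.42 against B0 and −2.05 against GTCACG, but 0.47 against TGCACT. With the remainders it was −1.09, and 9 genes had no overlap, all lower. The direction of this list as a whole therefore differed between *bmh1∆* libraries that carry the same label. ACGCGT, called the MluI cell cycle box, was searched for in the same windows before start codons. It was found for 15 (45.5%) of the 33 tested genes and for 2 of the 9 lower without overlap, beside 3.48% of all windows.

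*RNR1* (YER070W), the gene of the large subunit of ribonucleotide reductase, was at 1.31, 1.40 and 1.08 RPM in *bmh2∆*, against 21.2, 209 and 6.92 RPM in *bmh1∆*. The *bmh2∆* libraries were alike and near the lowest values that were tested, and TGCACT was the nearest *bmh1∆* library. Its difference was −3.88 ± 1.04, in a gene that only *bmh1∆* carried past the minimum of 3 RPM. *SWE1*, the gene of a kinase that delays mitosis, was at 5.96, 10.2 and 5.89 RPM in *bmh2∆*, against 42.6, 68.4 and 12.1 RPM in *bmh1∆*, and *POL1*, the gene of the catalytic subunit of DNA polymerase alpha, was at 5.88, 7.57 and 7.20 RPM in *bmh2∆*, against 24.4, 50.1 and 14.7 RPM in *bmh1∆*. For both, D0 was the *bmh2∆* library nearest to TGCACT, and B0 was far above all *bmh2∆* libraries. *MNN1*, for a mannosyltransferase of the Golgi, was at 4.36, 2.87 and 1.16 RPM in *bmh2∆*, against 8.53, 82.6 and 34.1 RPM in *bmh1∆*. *HO* (YDL227C), the gene of the mating type endonuclease, which is also transcribed in late G1, was at 2.76, 0.662 and 0.852 RPM in *bmh2∆*, against 9.34, 220.3 and 4.32 RPM in *bmh1∆*. In *HO* the GTCACG value stood far above the rest, and in the remainder of GTCACG the gene was at 18.7 RPM.

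Cell cycle genes of other phases differed between lists. Of 18 tested G2/M genes, 1 (5.56%) was higher and 5 (27.8%) were lower without overlap, beside 6.76% and 11.5% of all genes. Their median was −0.20, beside −0.14 for all genes. It was −0.29 against B0, −0.08 against GTCACG and −0.35 against TGCACT, beside −0.0002, −0.22 and −0.19 for all genes. Among the 23 genes that peak between M phase and early G1, 3 were higher and 3 lower. *BUD4* (YJR092W), for a bud site selection protein, was at 12.9, 20.4 and 17.1 RPM in *bmh2∆*, against 45.4, 78.5 and 52.2 RPM in *bmh1∆*, with a difference of −1.73 ± 0.34 and values of −1.40 against B0 and −1.60 against TGCACT. *CLN3*, the gene of the first G1 cyclin, was at 247, 269.9 and 257 RPM in *bmh2∆*, against 195, 33.1 and 21.4 RPM in *bmh1∆*. Its difference was 0.40 against B0 and 3.53 against TGCACT. *EGT2*, a cell separation gene, was at 365, 408 and 376 RPM in *bmh2∆*, against 335, 59.0 and 34.2 RPM in *bmh1∆*, and here too the lane 1 libraries alone stood far below. *EGT2* at 50 mM KCl was at 276, 301 and 195 RPM in *bmh2∆*, against 434, 26.0 and 8.61 RPM in *bmh1∆*, with B50 above the *bmh2∆* libraries.

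The median of the arginine synthesis genes was below 0 against each *bmh1∆* library. Of 10 tested genes of the list, 7 had a difference below 0 and 3 above, 4 had no overlap with *bmh2∆* lower and 0 with *bmh2∆* higher, beside 11.5% and 6.76% of all genes. The median difference was −1.46, and it was −0.63 against B0, −1.97 against GTCACG and −0.83 against TGCACT. With the remainders the same number, 4 of 10, had no overlap.

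*ARG3* (YJL088W), the gene of ornithine carbamoyltransferase, was at 30.4, 36.5 and 26.6 RPM in *bmh2∆*, against 227, 751 and 204 RPM in *bmh1∆*. The highest *bmh2∆* library, D0, was far below the lowest *bmh1∆* library, TGCACT. The difference was −3.36 ± 0.51, with −2.84 against B0 and −2.68 against TGCACT, and its unadjusted p, 1.7e-04, was the smallest of the named genes other than *BMH2*. *ARG8*, for acetylornithine aminotransferase, was at 24.6, 45.2 and 20.6 RPM in *bmh2∆*, against 108, 167 and 113 RPM in *bmh1∆*, with a difference of −2.12 ± 0.38. *ARG5,6*, which encodes acetylglutamate kinase and the reductase of the next step, was at 66.2, 102 and 81.4 RPM in *bmh2∆*, against 381, 432 and 167 RPM in *bmh1∆*. In *ARG5,6* TGCACT was the nearest *bmh1∆* library, and in *ARG8* B0 and TGCACT were alike.

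The arginine genes overlapped between the strains at 50 mM KCl. *ARG3* was at 336, 469 and 409 RPM in *bmh2∆*, against 156, 977 and 1517 RPM in *bmh1∆*, and *ARG8* at 125, 210.5 and 285 RPM in *bmh2∆*, against 51.9, 274 and 245 RPM in *bmh1∆*. None of the 10 genes was without overlap there, in either direction, beside 10.9% higher and 9.15% lower of all tested genes.

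Other amino acid genes and purine genes had more members lower than higher. Many of these genes are activated by Gcn4, the transcription factor of the general control of amino acid synthesis. Of 48 other amino acid synthesis genes, 2 (4.17%) were higher and 13 (27.1%) lower without overlap. Of 17 purine synthesis genes, 0 were higher and 6 (35.3%) lower, beside 6.76% and 11.5% of all genes. The median of the amino acid list was −0.52, and −0.23 against B0, −0.91 against GTCACG and −0.49 against TGCACT. The purine median was −0.79 against B0 and −1.22 against GTCACG but 0.00 against TGCACT.

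*LEU9*, for an isopropylmalate synthase, was at 36.4, 39.8 and 63.6 RPM in *bmh2∆*, against 94.1, 176 and 205 RPM in *bmh1∆*, and its difference was −1.71 ± 0.39. *ILV5*, an enzyme gene of isoleucine and valine synthesis, was at 263, 151 and 161 RPM in *bmh2∆*, against 296, 2486 and 1484 RPM in *bmh1∆*. *LYS2*, for aminoadipate reductase, was at 73.1, 77.6 and 55.8 RPM in *bmh2∆*, against 99.9, 382 and 383 RPM in *bmh1∆*, and *HIS4*, a histidine synthesis gene, at 134, 88.6 and 167 RPM in *bmh2∆*, against 169, 573 and 456 RPM in *bmh1∆*. In *ILV5*, *LYS2* and *HIS4* B0 was near the *bmh2∆* libraries and the lane 1 libraries stood far above, whereas *LEU9* was 2-fold or more lower against B0 as well.

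*ADE12* (YNL220W), for adenylosuccinate synthetase, the first step from inosine monophosphate to adenosine monophosphate, was at 99.7, 99.8 and 139 RPM in *bmh2∆*, against 304, 1111 and 629.8 RPM in *bmh1∆*. Its difference was −2.41 ± 0.48, with −1.44 against B0 and −2.49 against TGCACT. *ADE8* (YDR408C), for glycinamide ribonucleotide transformylase, was at 107, 179 and 83.0 RPM in *bmh2∆*, against 387, 614 and 264 RPM in *bmh1∆*, and *HPT1*, for the salvage enzyme of hypoxanthine and guanine, at 211, 199 and 153 RPM in *bmh2∆*, against 621, 686 and 347 RPM in *bmh1∆*. In these 2 genes TGCACT was the nearest *bmh1∆* library. *IMD4*, for inosine monophosphate dehydrogenase, was at 62.5, 54.8 and 47.1 RPM in *bmh2∆*, against 79.1, 393 and 279 RPM in *bmh1∆*. The glycine cleavage genes *GCV2* and *GCV3* were at 56.8, 50.3 and 60.5 RPM in *bmh2∆*, against 189, 257 and 80.3 RPM in *bmh1∆* for *GCV2* and 363, 443 and 352 RPM in *bmh2∆*, against 736, 914 and 630.3 RPM in *bmh1∆* for *GCV3*.

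The stretches before *ARG8*, *ARG5,6* and *ADE8* are shown with the core of the Gcn4 site, TGACTC, searched for on both strands. Matches are in capitals, and 7.76% of the 6007 windows held one. Among genes lower without overlap a match was found for 3 of 4 arginine genes, 11 of 13 other amino acid genes and 4 of 6 purine genes. Among all tested genes of these lists it was found for 9 of 10, 28 of 48 and 9 of 16 with a window. *ARG3* held none in its window.
ARG8, chrXV:58459-58758, plus strand: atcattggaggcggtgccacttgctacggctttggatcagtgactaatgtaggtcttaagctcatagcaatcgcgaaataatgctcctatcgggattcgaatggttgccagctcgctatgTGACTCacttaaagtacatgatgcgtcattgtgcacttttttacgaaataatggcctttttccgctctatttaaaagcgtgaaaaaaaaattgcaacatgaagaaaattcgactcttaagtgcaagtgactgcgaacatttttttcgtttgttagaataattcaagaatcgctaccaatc
ARG5,6, chrV:295110-295409, plus strand: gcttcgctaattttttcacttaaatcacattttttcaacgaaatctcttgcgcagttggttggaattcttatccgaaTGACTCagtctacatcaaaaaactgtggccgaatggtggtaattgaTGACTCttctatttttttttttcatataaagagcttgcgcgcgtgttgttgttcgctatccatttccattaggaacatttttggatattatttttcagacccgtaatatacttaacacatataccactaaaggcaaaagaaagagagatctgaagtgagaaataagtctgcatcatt
ADE8, chrIV:1288860-1289159, minus strand: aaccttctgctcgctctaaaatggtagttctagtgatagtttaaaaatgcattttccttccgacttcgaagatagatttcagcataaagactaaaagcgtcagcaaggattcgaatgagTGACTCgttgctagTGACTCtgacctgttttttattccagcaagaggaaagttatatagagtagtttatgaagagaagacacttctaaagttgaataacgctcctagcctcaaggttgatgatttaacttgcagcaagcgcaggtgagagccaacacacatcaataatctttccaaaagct

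Genes of the cytosolic ribosome also had more members lower than higher without overlap, though their medians were near that of all genes. Of 67 large subunit genes 1 (1.49%) was higher and 18 (26.9%) lower, and of 45 small subunit genes 0 were higher and 11 (24.4%) lower. Of all genes 6.76% were higher and 11.5% lower. Their medians were −0.16 and −0.10, beside −0.14 for all genes. After median-of-ratios scaling both medians were above 0, at 0.02 and 0.08. *RPL18B* was at 73.7, 115 and 82.7 RPM in *bmh2∆*, against 344, 326 and 144 RPM in *bmh1∆*, and *RPL22B* at 32.5, 48.1 and 38.0 RPM in *bmh2∆*, against 70.8, 295 and 331 RPM in *bmh1∆*. In *RPL18B* TGCACT was nearest to *bmh2∆*, and in *RPL22B* B0 was. *RPS22B* was at 199, 208 and 131 RPM in *bmh2∆*, against 315, 1044 and 952 RPM in *bmh1∆*, and *ASC1*, the gene of a scaffold protein on the small subunit, at 1243, 1373 and 1689 RPM in *bmh2∆*, against 2075, 5355 and 4725 RPM in *bmh1∆*. Most yeast ribosomal proteins have a pair of near-identical genes, so values of single genes of a pair are uncertain.

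Of 102 ribosome biogenesis genes 3 were higher and 15 (14.7%) lower, and of 24 genes of RNA polymerase I and III 1 was higher and 4 (16.7%) lower, near the 11.5% of all genes that were lower. The median of the first list was −0.18, and 0.01 after median-of-ratios scaling. *DBP2*, for an RNA helicase, was at 44.2, 46.5 and 83.0 RPM in *bmh2∆*, against 309, 500.3 and 92.5 RPM in *bmh1∆*, with −2.46 against B0 and −0.73 against TGCACT. *UTP11*, a gene of the small subunit processome, was at 62.6, 85.9 and 62.7 RPM in *bmh2∆*, against 111, 179 and 169.6 RPM in *bmh1∆*. Of 66 mitochondrial ribosomal protein genes 2 (3.03%) were higher and 6 (9.09%) lower, below the 6.76% and 11.5% of all genes. Their median was −0.51, and −0.07 against B0.

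Chaperone, proteasome and peroxide defence genes had more members higher than lower without overlap, beside 6.76% and 11.5% of all genes. By sign, with or without overlap, 24 chaperone genes had a difference above 0 and 14 below, 19 proteasome genes above and 17 below, and 18 peroxide defence genes above and 14 below. Of 38 heat shock and chaperone genes, 7 were higher and 1 lower without overlap, with a median of 0.25, and 0.33, 0.42 and 0.07 against B0, GTCACG and TGCACT. Of 36 proteasome genes 5 were higher and 0 lower, with a median of 0.06. Of 32 peroxide and superoxide defence genes 7 were higher and 1 lower, with a median of 0.13.

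*SSC1*, the gene of the Hsp70 chaperone of mitochondria, was at 835, 549 and 1491 RPM in *bmh2∆*, against 465, 212 and 232 RPM in *bmh1∆*, with 0.92 against B0 and 1.92 against TGCACT. *HSP42*, for a small heat shock protein, was at 500.1, 345 and 592 RPM in *bmh2∆*, against 262, 100.1 and 209 RPM in *bmh1∆*, and *HSP60*, for the chaperonin of mitochondria, at 1592, 1737 and 1726 RPM in *bmh2∆*, against 1258, 536 and 582 RPM in *bmh1∆*. *SSA4*, for a stress-induced cytosolic Hsp70, was at 162, 155 and 287 RPM in *bmh2∆*, against 119, 19.8 and 21.0 RPM in *bmh1∆*. In these 4 genes B0 was the highest *bmh1∆* library. *SSC1* at 50 mM KCl was at 194, 98.3 and 131 RPM in *bmh2∆*, against 307, 70.3 and 61.3 RPM in *bmh1∆*, and the strains overlapped.

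*PRX1*, for a peroxiredoxin of mitochondria, was at 505, 473 and 569.8 RPM in *bmh2∆*, against 265, 129 and 225 RPM in *bmh1∆*, with a difference of 1.38 ± 0.35 and 0.95 against B0. *SRX1*, for sulfiredoxin, was at 151, 218 and 94.0 RPM in *bmh2∆*, against 93.1, 23.1 and 32.4 RPM in *bmh1∆*, with a wide spread in *bmh2∆* and E0 just above B0. *OYE2*, for an NADPH oxidoreductase, was at 1123, 1103 and 1476 RPM in *bmh2∆*, against 1061, 378 and 224 RPM in *bmh1∆*, and *TRX3*, for the thioredoxin of mitochondria, at 43.7, 50.0 and 45.5 RPM in *bmh2∆*, against 41.9, 1.88 and 3.50 RPM in *bmh1∆*. For *OYE2* and *TRX3* B0 was just below the *bmh2∆* libraries and the lane 1 libraries were far below. Of the proteasome genes, *PRE6* was at 389, 346 and 549.9 RPM in *bmh2∆*, against 335, 165 and 69.7 RPM in *bmh1∆*, and *RPN2* at 547, 476 and 637 RPM in *bmh2∆*, against 452, 283 and 223 RPM in *bmh1∆*.

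Sugar metabolism gave a mixed picture. Of 20 pentose phosphate genes 5 (25%) were higher and 1 (5%) lower without overlap, beside 6.76% and 11.5% of all genes. *NQM1* (YGR043C), for a transaldolase, was at 484, 411 and 344 RPM in *bmh2∆*, against 202, 64.3 and 192 RPM in *bmh1∆*, 2-fold or more above each *bmh1∆* library, with a difference of 1.58 ± 0.47. *TKL2*, for the minor transketolase, was at 46.8, 28.0 and 44.4 RPM in *bmh2∆*, against 21.1, 9.56 and 23.0 RPM in *bmh1∆*. *RPE1*, for ribulose phosphate epimerase, was in contrast lower, at 16.8, 20.7 and 12.9 RPM in *bmh2∆*, against 39.6, 197 and 120.0 RPM in *bmh1∆*, with a difference of −2.50 ± 0.56. *NQM1* at 50 mM KCl was at 21.8, 11.2 and 13.8 RPM in *bmh2∆*, against 17.2, 7.76 and 12 RPM in *bmh1∆*, far below its levels without potassium in both strains.

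*HXT7*, for a high-affinity hexose transporter, was at 185, 361 and 182 RPM in *bmh2∆*, against 622, 559 and 813 RPM in *bmh1∆*. D0 was higher than the other *bmh2∆* libraries and still below all *bmh1∆* libraries. *HXT6* is nearly identical to *HXT7*, so its value is uncertain. *HXK1*, for a hexokinase, was at 1496, 1607 and 1315 RPM in *bmh2∆*, against 978, 397 and 960.3 RPM in *bmh1∆*, and *PDC5*, for a pyruvate decarboxylase, at 202, 232 and 205 RPM in *bmh2∆*, against 120.0, 92.1 and 139.5 RPM in *bmh1∆*. *NTH1*, for the neutral trehalase that 14-3-3 proteins bind and activate, was at 488, 304 and 634 RPM in *bmh2∆*, against 286, 151 and 241 RPM in *bmh1∆*. *RTG2*, for an activator of the retrograde pathway, was at 78.2, 60.1 and 95 RPM in *bmh2∆*, against 103, 215 and 246 RPM in *bmh1∆*. Of 13 tested genes of the list of 14-3-3 genes and known partners, 2 were higher and 2 lower without overlap, *BMH1* and *BMH2* included. This was 15.4% in each direction, beside 6.76% higher and 11.5% lower of all genes.

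The phosphate regulon is switched on by Pho4 when phosphate or potassium is short. Of 18 tested genes, 3 were higher and 1 lower without overlap (16.7% and 5.56%, beside 6.76% and 11.5% of all genes). The median was −0.04, with 0.63 against B0, −0.38 against TGCACT and 0.14 after median-of-ratios scaling. *SPL2* (YHR136C), whose product lowers phosphate uptake by low-affinity transporters, was at 153, 193 and 143 RPM in *bmh2∆*, against 77.6, 73.8 and 134 RPM in *bmh1∆*. E0 was just above TGCACT, and the difference was 0.81 ± 0.33. *PHO81*, for the inhibitor of the Pho80 and Pho85 kinase, was at 164, 123 and 182 RPM in *bmh2∆*, against 101, 40.7 and 29.5 RPM in *bmh1∆*, and *PHO8*, for the vacuolar alkaline phosphatase, at 120.2, 161 and 74.1 RPM in *bmh2∆*, against 64.7, 69.8 and 42.9 RPM in *bmh1∆*. *PHO8* overlapped with the remainders. *SPL2* at 50 mM KCl was at 6.83, 7.55 and 5.99 RPM in *bmh2∆*, against 2.89, 2.48 and 2.71 RPM in *bmh1∆*, with *bmh2∆* higher there too.

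Among regulators and other transporters of phosphate, 1 of 15 genes (6.67%) was higher and 3 (20%) were lower, beside 6.76% and 11.5% of all genes. *YDR089W*, a gene linked to vacuolar polyphosphate, was at 27.1, 35.9 and 35.6 RPM in *bmh2∆*, against 74.2, 107 and 78.4 RPM in *bmh1∆*. It was 2-fold or more lower against each *bmh1∆* library, and its difference was −1.36 ± 0.30. *PHO90*, for a low-affinity phosphate transporter, was at 25.6, 39.8 and 23.5 RPM in *bmh2∆*, against 48.9, 95.1 and 83.6 RPM in *bmh1∆*. *PPX1*, for an exopolyphosphatase, was at 105, 121 and 99.4 RPM in *bmh2∆*, against 97.9, 61.8 and 57.4 RPM in *bmh1∆*, with B0 close to E0.

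The stretch before *SPL2* is shown because it holds 3 matches, in capitals, to CACGTG, the sequence that Pho4 binds. Of the 6007 windows 3.56% held this sequence, and of the 18 tested genes of the phosphate regulon 9. Among the 3 genes higher without overlap only *SPL2* held it, and *HIS1*, the 1 lower gene, held it too.
SPL2, chrVIII:375101-375400, minus strand: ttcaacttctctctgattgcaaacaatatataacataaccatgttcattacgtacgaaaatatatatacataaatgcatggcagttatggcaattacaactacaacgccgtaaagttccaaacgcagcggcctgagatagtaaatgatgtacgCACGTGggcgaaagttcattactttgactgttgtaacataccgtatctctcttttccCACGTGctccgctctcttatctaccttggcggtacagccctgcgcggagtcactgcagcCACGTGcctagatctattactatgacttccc

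Of 20 tested genes of potassium, sodium and proton transport, 3 (15%) were higher and 0 lower without overlap, beside 6.76% and 11.5% of all genes. *SIS2*, for an inhibitory subunit of the Ppz1 phosphatase that restrains potassium uptake, was at 165, 157 and 234 RPM in *bmh2∆*, against 153, 33.4 and 9.23 RPM in *bmh1∆*, and its relative *VHS3* was at 262, 190.0 and 329 RPM in *bmh2∆*, against 171, 44.9 and 28.4 RPM in *bmh1∆*. *PMA1*, for the proton ATPase of the plasma membrane, was at 5367, 4489.7 and 6638 RPM in *bmh2∆*, against 4039, 1722 and 1991 RPM in *bmh1∆*. In these genes the differences against B0 were 0.25, 0.57 and 0.43, and against TGCACT 4.17, 3.12 and 1.45. B0 was close to *bmh2∆* in each, and at 50 mM KCl each overlapped between the strains.

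Ergosterol, fatty acid and cell wall genes were more often lower. Of 43 ergosterol and fatty acid genes, 0 were higher and 9 (20.9%) lower without overlap, beside 6.76% and 11.5% of all genes. Their median was −0.34, but 0.11 against TGCACT. *FAA4*, for an acyl-CoA synthetase, was at 31.2, 28.2 and 39.9 RPM in *bmh2∆*, against 72.4, 250.4 and 94.6 RPM in *bmh1∆*, and *FEN1*, for a fatty acid elongase, at 83.8, 98.8 and 117 RPM in *bmh2∆*, against 214, 562 and 221 RPM in *bmh1∆*. Both were 2-fold or more lower against each *bmh1∆* library. *ERG2*, for a sterol isomerase, was at 201, 274 and 131 RPM in *bmh2∆*, against 340.3, 828 and 601 RPM in *bmh1∆*. Phospholipid and inositol genes went both ways, with 4 (12.9%) of 31 higher and 6 (19.4%) lower without overlap. With the remainders 3 of them were higher and 1 lower.

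Of 42 cell wall genes 3 (7.14%) were higher and 9 (21.4%) lower, beside 6.76% and 11.5% of all genes. *GAS1*, for a glucan-modifying enzyme of the wall, was at 89.1, 61.7 and 94.6 RPM in *bmh2∆*, against 185, 658 and 274 RPM in *bmh1∆*, with a difference of −1.99 ± 0.48. With 50 mM KCl it was at 304, 229 and 209 RPM in *bmh2∆*, against 517, 1192 and 1095 RPM in *bmh1∆*, again with all *bmh2∆* libraries lower. *SLT2*, for the MAP kinase of cell wall integrity, was at 130.0, 110.1 and 125 RPM in *bmh2∆*, against 91.8, 21.4 and 14.0 RPM in *bmh1∆*, and *PUN1*, a membrane protein gene, at 200.4, 154 and 289 RPM in *bmh2∆*, against 146, 65.7 and 83.8 RPM in *bmh1∆*. *KTR5*, for a mannosyltransferase, was at 2.69, 2.65 and 3.87 RPM in *bmh2∆*, against 11.0, 87.6 and 35.3 RPM in *bmh1∆*, and its difference was −3.07 ± 0.67.

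Iron, zinc and sulfur genes did not share one direction. Of 33 iron genes 5 (15.2%) were higher and 2 (6.06%) lower, of 14 zinc and copper genes 1 (7.14%) was higher and 3 (21.4%) lower, and of 27 sulfur and methionine genes 3 (11.1%) were higher and 1 (3.70%) lower, beside 6.76% and 11.5% of all genes. *FET4*, for a low-affinity iron transporter, was at 178, 172 and 207 RPM in *bmh2∆*, against 113, 44.8 and 52.6 RPM in *bmh1∆*. At 50 mM KCl it was at 68.9, 58.5 and 57.1 RPM in *bmh2∆*, against 26.9, 12.5 and 10.5 RPM in *bmh1∆*, also with *bmh2∆* higher. *ZRT1*, for the high-affinity zinc transporter, was at 51.6, 51.3 and 59.3 RPM in *bmh2∆*, against 83.7, 107 and 243 RPM in *bmh1∆*, with TGCACT far above the other *bmh1∆* libraries. *MET14*, for adenylylsulfate kinase, was at 145, 112 and 178 RPM in *bmh2∆*, against 109.6, 45.5 and 14.1 RPM in *bmh1∆*, and it overlapped with the remainders. The plot of lists gives the medians against each *bmh1∆* library beside the counts.

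**Figure D5:**
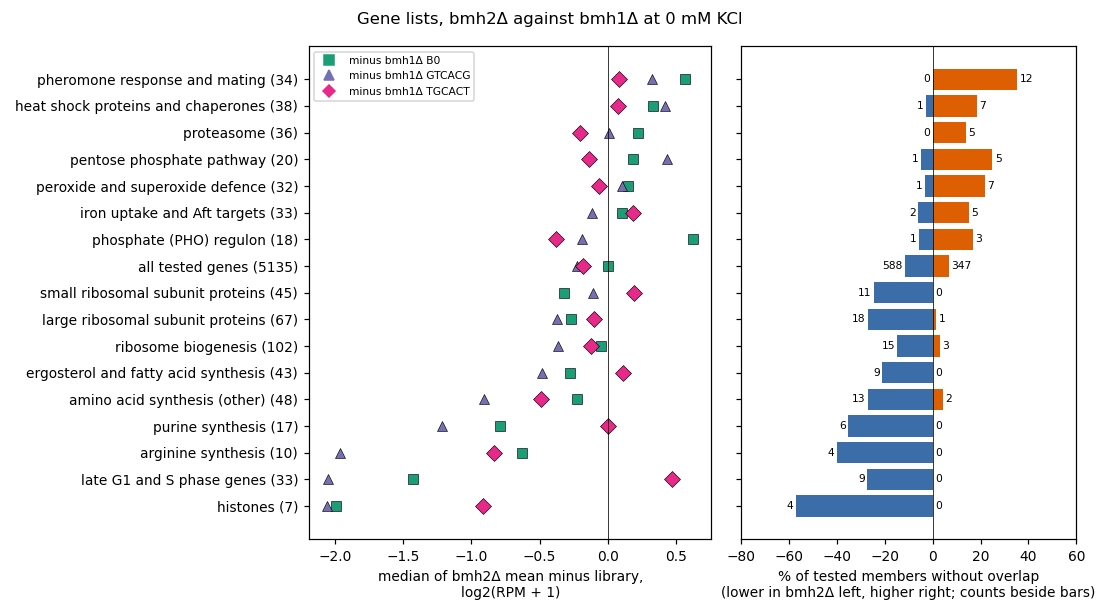
Left, median over the tested members of each list (number in parentheses) of the *bmh2∆* mean minus B0, GTCACG or TGCACT, in log2(RPM + 1). Right, percent of members without overlap, lower in *bmh2∆* to the left and higher to the right, with counts beside the bars. The pheromone list and the chaperone list lie right of all genes against each library, histones and arginine synthesis lie left against each, and late G1 genes lie on both sides of 0.

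The 15 largest differences in each direction were larger against the lane 1 library TGCACT than against B0, with exceptions among the lower genes. The 15 genes with the largest positive differences (2.09 to 3.09) differed from TGCACT by 2.65 to 5.46 and from B0 by 0.14 to 1.05. All 15 were also higher in B50 than in the lane 1 *bmh1∆* libraries at 50 mM KCl. *YHR113W*, an aminopeptidase gene, was at 475, 376 and 423 RPM in *bmh2∆*, against 362, 34.0 and 8.63 RPM in *bmh1∆*. With 50 mM KCl it was at 377, 277 and 234 RPM in *bmh2∆*, against 206, 8.90 and 5.25 RPM in *bmh1∆*, with B50 far above GGATAT and CTATAG. *UBX2*, *EST3* and *PAH1* had the same pattern, with differences of 0.45, 0.32 and 0.42 against B0 and of 4.44, 4.22 and 3.56 against TGCACT.

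Of the 15 genes with the largest negative differences, 9 were 2-fold or more lower against B0, namely *BMH2*, *HTB2*, *RNR1*, *ARG3*, *HO*, *MNN1*, *KTR5*, *HTA1* and *AIM34*. The other 6 were less than 2-fold lower against B0. *BIM1*, for a microtubule plus end protein, was at 5.88, 6.76 and 4.80 RPM in *bmh2∆*, against 7.82, 127 and 184 RPM in *bmh1∆*. At 50 mM KCl it was at 8.49, 12.1 and 11.9 RPM in *bmh2∆*, against 4.33, 144 and 271 RPM in *bmh1∆*, with B50 below both strains' other libraries. In 14 of the 15 genes, all but *BMH2*, B50 was lower than the lane 1 libraries.

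The strain comparison at 50 mM KCl used the same deletions and other libraries. There 560 genes (10.9%) were higher and 470 (9.15%) lower in *bmh2∆* without overlap, and 89 and 63 of them had the same direction at 0 mM KCl. For 14 genes the direction was opposite. The difference between the strain differences at 0 and 50 mM KCl was tested with limma over all 12 libraries. At an adjusted p under 0.05, 0 genes (0%) passed, with 168 genes at an unadjusted p under 0.05 and a smallest adjusted p of 0.99. Neither a strain difference particular to cells without potassium nor its absence was thus shown for a single gene.

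Leaving out 1 library changed the number of genes past the threshold. Without TGCACT, 17 genes were lower and 0 higher. Of these 17, 7 were among the genes without overlap, namely *ARG3*, *ARG5,6*, *HTA1*, *HHF2*, *SWE1*, *DBP2* and *BMH2*. The others overlapped between the strains when TGCACT was included, and they are not named here. In this fit *bmh1∆* was B0 and GTCACG alone, which lie at or above sums of other libraries at nearly every gene. These calls cannot be told apart from an effect of reads shared with those libraries, which was not tested. Without B0, 705 genes were higher and 1229 lower, but *bmh1∆* was then lane 1 alone, and strain and lane cannot be told apart. Without GTCACG the count was 1, and without any *bmh2∆* library it was also 1.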

How the data were processed

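SAGE libraries were sequenced from *bmh2∆* and *bmh1∆* cells, 3 of each strain at 0 and at 50 mM KCl. Per the labels, polyadenylated RNA was captured on oligo-dT beads, cDNA was cut with NlaIII at the CATG nearest the poly(A) tail, MmeI released tags of 17 bases beyond CATG, and tags were amplified by PCR. How tags were assigned to genes, the genome build and the treatment of tags shared by several genes were not given in the sources used here. The deposited table held RPM values per gene, made by the authors, that sum to 1000000 in each of the 12 columns. Column names gave the strain, the KCl concentration and the lane but no replicate number, and 0 columns were left unused. The values were whole multiples of a step (tolerance 0.01), which was used only to describe depth, since no count table was used here.

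Genes that reached 3 RPM in 3 or more of the 6 libraries were compared on log2(RPM + 1), a pseudocount of 1 that understates differences of low genes, with limma 3.58.1 (moderated test, trend and robust fit, R 4.3.3). The p-values were adjusted by the method of Benjamini and Hochberg over all 5135 genes tested, with a threshold of 0.05. The difference between the strain differences at 0 and 50 mM KCl was fitted to all 12 libraries. Genes were named where the groups did not overlap and the mean was at least 10 RPM in the higher group, as the 15 largest differences in each direction and up to 4 genes per list, beside the deleted genes. Lists were described by their counts and medians. The comparison, the lists and the tests were chosen with earlier results of these data known. Alternatives covered pseudocounts, filters, scalings, library weights, omitted libraries, lanes and remainders of B0 and GTCACG. The remainders, the counts without overlap of omitted libraries and the group of 46 genes were chosen after seeing the data. Names were matched to the RefSeq annotation of build R64 for 5568 of 6053 genes, and sequences were read from its genome with Python 3.11.15. The scripts were tested on simulated data. The values of 1 named gene are not reported here.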

Additional observations from a re-analysis of the deposited data

Results flagged for a closer look

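*SAG1*, which encodes α-agglutinin and is normally expressed in MATα cells, had opposite strain differences at the 2 potassium levels. At 0 mM KCl it was at 52.4, 35.2 and 63.7 RPM in *bmh2∆*, against 26.1, 26.9 and 28.2 RPM in *bmh1∆*. At 50 mM KCl it was at 10.4, 11.2 and 8.21 RPM in *bmh2∆*, against 17.5, 16.7 and 17.7 RPM in *bmh1∆*. All *bmh2∆* libraries were thus above all *bmh1∆* libraries without potassium and below them with it. The difference between the strain differences was 1.58 ± 0.39 on the log2(RPM + 1) scale, with an unadjusted p of 0.0018 in limma and an adjusted p of 0.99 over the 5135 genes tested, so it did not pass. With the remainders of B0 and GTCACG the strains overlapped at 0 mM KCl. No cause was tested.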

How the results depend on the processing

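The single gene past the threshold, *BMH2*, was the only one under other pseudocounts, filters, scalings, a plain limma fit, the fit of all 12 libraries, the remainders and the omission of GTCACG or of any *bmh2∆* library. With library weights, whose estimation did not converge, 2 genes were lower. With the paper's test on RPM 0 were lower. With the lettered libraries alone 3 were lower, and with lane 6 alone 14. These fits leave *bmh1∆* with B0 only, which is assumed to vary like the *bmh2∆* libraries. Without B0 and GTCACG 623 genes were higher and 880 lower, and TGCACT was then the lone *bmh1∆* library.

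When 1 library was left out, the genes past the threshold ranged over 0 to 705 higher and 1 to 1229 lower, with the upper ends without B0 and 17 lower without TGCACT. Genes without overlap ranged over 366 to 1231 higher and 596 to 1995 lower. They numbered 559 higher without E0, and 930 higher and 1002 lower without D0. With smaller groups overlap is rarer by construction, as in the 1692 higher and 2350 lower without B0 and GTCACG, 910 and 1145 in the lettered libraries alone and 1026 and 1384 in lane 6 alone. After median-of-ratios scaling 522 were higher. The difference between the strain differences at 0 and 50 mM KCl passed for 0 to 4 genes when 1 library was left out, with 2 genes without TGCACT and 4 without D50. Where no reason is given, the cause was not tested.

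No named gene changed direction under an alternative that gave it a value, and the filter of 10 RPM gave one for 145 of 155. The genes were named for having no overlap. Omitted libraries, pseudocounts, filters and other fits of the same values could therefore not reverse them, and only the scalings and the remainders could. The groups still did not overlap for 141 of the 155 after median-of-ratios scaling and for 137 after quantile normalization. The number newly past the threshold was 132 without B0, 97 without B0 and GTCACG, 6 without TGCACT, 4 in lane 6 alone and 1 with library weights. A test on counts was not run, since the deposited values are RPM and whole reads could not be recovered. The strains share no replicate number or letter, so their comparison at 0 mM KCl could not be paired. The letters B to E each name a library at 0 and one at 50 mM KCl. With the letter as replicate block and lane 1 as 1 block, an alternative chosen after seeing the data, the difference of the strain differences passed for 0 genes (548 at an unadjusted p under 0.05). The letters were not taken as pairs, since the deviations of same-lettered libraries correlated with r of 0.88 for B, 0.07 for C, 0.26 for D and −0.29 for E over the tested genes, and those of C50 more with E0 (0.54) than with C0.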
